A study of Mus musculus with 6 samples.

Results

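Semaphorins are secreted or membrane-bound ligands that share the sema domain, and plexins are the transmembrane receptors that bind them. Neuropilins lack a signalling domain of their own and hold class 3 semaphorins, as well as vascular endothelial growth factors, on the cell surface. The plexin's inner domain acts on small GTPases and so on adhesion and the actin cytoskeleton. The family is best known from axon guidance and also acts in vessels, immune cells and epithelia.

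The genes described here are those whose platform symbol begins with Sema or Plxn, together with Nrp1, Nrp2, Plxdc1 and Plxdc2, and each was represented by its brightest probe. This rule found 32 of the 19057 genes on the array, with 82 of its 45281 probes. Of these genes 19 encode semaphorins, 9 plexins and 2 neuropilins. Plxdc1 and Plxdc2 encode membrane proteins with a plexin-like repeat that are not themselves semaphorin receptors. Sema5b was not analysed here.

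Transcripts were measured on Illumina bead arrays in mouse small intestinal organoids, epithelial structures grown in culture from the gut lining. The control group held 3 samples whose strain is given as Villin-Cre. The Snai1 knockout group held 3 samples of the strain Villin-Cre, Snai1fl/fl, in which Cre under the Villin promoter acts on the loxP-flanked Snai1 gene in epithelium. The strain label thus differs between the groups, and a difference between strains cannot be told apart from an effect of the deletion. Tamoxifen, at 0.5 µM and for 24 hours, was given to both groups alike. Whether the samples of a group came from separate animals or cultures is not in the labels, so the spread behind each p-value is that of these samples and could be technical.

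The deposited values are on a log scale, taken as base 2, and run from 7.71 to 14.8 on every array, with a median of 7.87 and an upper quartile of 8.27. The scale is compressed at its lower end, so differences of dim genes are understated. Arrays correlated at r = 0.994 to 0.997 over all probes. The brighter Snai1 probe read 7.91 ± 0.04 in control and 7.91 ± 0.05 in knockout samples (SD, n = 3 each), too dim to check the deletion, so the groups rest on the labels alone. Of 10 markers of intestinal epithelium 9 lay above the upper quartile, Epcam being the exception at 8.13 in control. Of 29 measured markers of stroma, smooth muscle, endothelium, blood cells, neurons and glia none did, the highest mean being 7.97. Among the organoid's own cell types, the mean of 4 enteroendocrine markers ran from 9.29 to 9.33 on control arrays and from 9.18 to 9.26 on knockout arrays, so the groups did not overlap. By single gene, only Chga was without overlap (-0.17, adjusted p = 0.39, limma). Chgb and Sct differed by -0.15 each with groups that overlapped. Neurod1, at the dim end of the scale, went the other way (0.021), also with overlap. The mean of 4 crypt base stem cell markers overlapped between groups but was higher in the knockout in all 3 pairs of samples with the same replicate number, by 0.16, 0.17 and 0.36. Its members Olfm4 (0.45 ± 0.13, without overlap) and Lgr5 (0.42 ± 0.18, SE) did not pass (adjusted p = 0.48 and 0.73, or 0.35 and 0.069 with the replicate number as a block, limma). Ascl2 and Smoc2, which complete the list, differed by only 0.045 and 0.0093, with groups that overlapped. The mean of 4 enterocyte markers was lower in all 3 pairs, by -0.19, -0.061 and -0.15, and that of 4 goblet cell markers higher, by 0.0027, 0.27 and 0.10. All 4 enterocyte markers had lower knockout means, with differences from -0.28 for Apoa1 to -0.00066 for Sis. Of the goblet cell markers, 3 had higher knockout means and 1, Agr2, a lower one (-0.015). The mean of the 3 measured Paneth cell markers overlapped between groups, with pairs differing by -0.26, -0.014 and 0.030. Of these, Lyz1 was wholly lower in the knockout (-0.099, adjusted p = 0.52, limma). Ang4 differed by -0.22 and Mmp7 by 0.076, with groups that overlapped. The mean of 6 endothelial markers, all dim, ran from 7.874 to 7.901 on control arrays and from 7.861 to 7.872 on knockout arrays. These ranges barely missed each other, and each of the 6 genes overlapped by itself. Of all single genes, 12.0% had groups without overlap and 30.7% differed in one direction in all 3 pairs. For means of several markers no such share was taken. The part of these marker differences in the results below was not tested. In RNA from whole organoids, fewer cells of a type and less RNA per cell cannot be told apart.

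Of the 32 genes, 1 rose and 1 fell in the knockout, the class 5 semaphorin Sema5a and the class 7 semaphorin Sema7a (adjusted p under 0.05, limma, over all genes). That is 6.25% of the members, against 0.131% of all genes tested (0.0367% higher and 0.0945% lower). These members were taken up with that result known, so the share is not independent evidence. The same 2 genes were the only members with an unadjusted p under 0.05, again 6.25%, against 7.22% of all genes. They were also the only ones whose brightest probe had 3 knockout values wholly on one side of the 3 control values. Of all genes, 12.0% did so. A dimmer probe of Sema3b and a dimmer probe of Sema6a were wholly lower as well, with differences of -0.041 and -0.040. Neither passed over all probes (adjusted p = 0.83 and 0.86, limma), and the share of all probes without overlap was not taken. The median difference, knockout minus control, was -6.9e-05 over the members and -0.00057 over all genes. The median size of a difference, whatever its sign, was 0.025 and 0.026. Knockout and control differed in the same direction in all 3 pairs of samples with the same replicate number for 9 members, or 28.1%, against 30.7% of all genes.

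**Figure D1:**
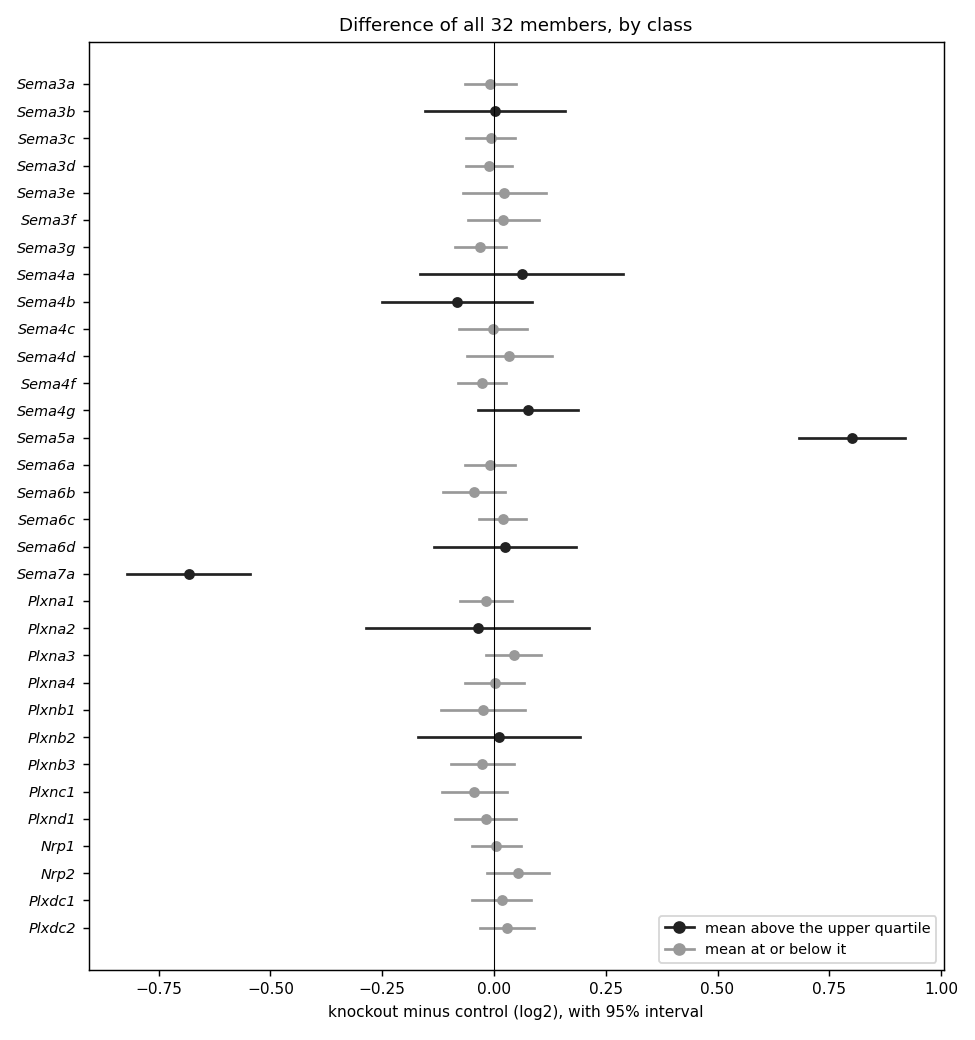
Difference between knockout and control (log2, horizontal axis) for each of the 32 genes, ordered by class, with points for the fitted difference and lines for its 95% interval from limma; black marks genes whose mean lies above the upper quartile of all values, grey the others. Sema5a at 0.80 and Sema7a at -0.68 stand apart, and the intervals of the other 30 genes all include 0.

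Sema5a encodes a transmembrane semaphorin with thrombospondin repeats, which binds heparan and chondroitin sulfate proteoglycans. Its brightest probe read 8.90, 9.00 and 8.97 on control arrays 1 to 3 and 9.69, 9.85 and 9.74 on knockout arrays 1 to 3. The lowest knockout value thus lay above the highest control value. The group means were 8.96 ± 0.05 and 9.76 ± 0.08 (SD, n = 3), 1.74-fold apart on the deposited scale. The log2 difference was 0.80 ± 0.05 (SE; adjusted p = 0.0081, limma; 95% interval 0.68 to 0.92). Pairs of the same replicate number differed by 0.79, 0.85 and 0.76.

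Sema5a was represented by 5 probes, and both of those annotated to its RefSeq transcript rose. The second, ILMN_2604224, read 8.60, 8.72 and 8.67 in control and 9.36, 9.43 and 9.31 in knockout samples. Its difference was 0.70 ± 0.04 (SE; adjusted p = 0.0090 over all probes, limma). The other 3 probes are annotated to cDNA clones and read between 7.84 and 7.96 in both groups, near the median of all probes. Their differences were 0.0038, 0.023 and -0.0072, so these probes gave no sign of the rise, at levels where one would hardly be detectable.

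Sema7a encodes the only semaphorin that is tied to the membrane by a glycolipid (GPI) anchor, a ligand of beta-1 integrins and of plexin C1. Its brightest probe, ILMN_2790357, read 9.43, 9.62 and 9.58 on control arrays and 8.81, 8.88 and 8.90 on knockout arrays. All 3 knockout values lay below all 3 control values. The means were 9.55 ± 0.10 and 8.86 ± 0.05 (SD, n = 3), so control exceeded knockout 1.61-fold. The log2 difference was -0.68 ± 0.06 (SE; adjusted p = 0.022, limma; 95% interval -0.82 to -0.55), and pairs of the same number differed by -0.62, -0.74 and -0.68.

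The fall of Sema7a rests on this 1 probe. ILMN_2666526 read 7.94 in control and 7.92 in knockout samples, and ILMN_2601974 read 7.80 and 7.83. All 3 probes are annotated to the same RefSeq transcript, but the 2 others lay at the dim end of the scale. Of all probes, 61.8% were dimmer than ILMN_2666526 and 24.3% dimmer than ILMN_2601974. The differences of these 2 probes were -0.024 and 0.036. With the mean of a gene's probes in place of the brightest, the difference of Sema7a was -0.22 (adjusted p = 0.055, limma) and that of Sema5a 0.30 (adjusted p = 0.0100, limma). Over all probes, 3 of the members' 82 passed, 2 of Sema5a and 1 of Sema7a, against 0.0883% of the array's probes.

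**Figure D2:**
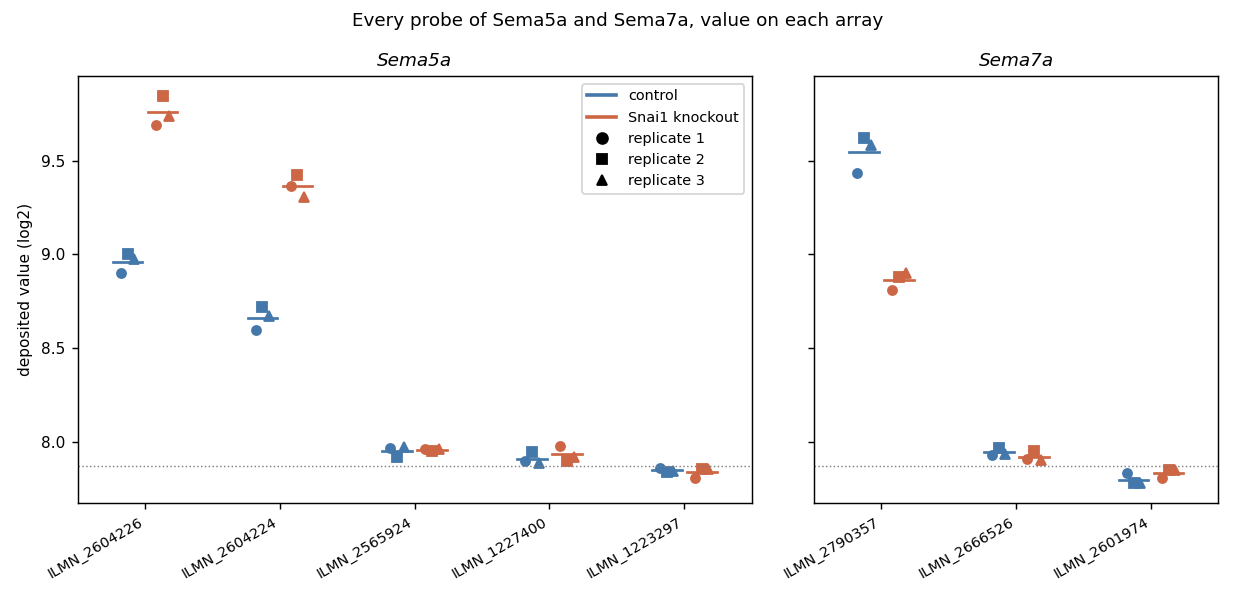
Deposited value (log2, vertical axis) of each probe of Sema5a (left, 5 probes) and Sema7a (right, 3 probes) on every array; blue is control, orange is Snai1 knockout, symbols give the replicate number, short bars the group mean, and the dotted line the median of all values at 7.87. Knockout and control separate at 2 Sema5a probes, in the direction of a rise, and at 1 Sema7a probe, in the direction of a fall, while the other probes lie near the dotted line.

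Both calls held with the replicate number as a block (adjusted p = 0.010 for Sema5a and 0.027 for Sema7a, limma), a fit that called 0.0472% of all genes. With 5 arrays the sizes hardly moved but the threshold was often missed. Sema5a lost its call without control replicate 1 (0.77, adjusted p = 0.058), without control replicate 3 (0.81, adjusted p = 0.061) and without knockout replicate 3 (0.81, adjusted p = 0.077; limma). Sema7a lost its call without control replicate 2 (-0.64, adjusted p = 0.086), without control replicate 3 (-0.66, adjusted p = 0.12), without knockout replicate 1 (-0.66, adjusted p = 0.071), without knockout replicate 2 (-0.69, adjusted p = 0.12) and without knockout replicate 3 (-0.70, adjusted p = 0.13; limma). Subtracting each array's lowest value before taking logs, which undoes part of the compression, gave 1.15 for Sema5a and -1.02 for Sema7a, the latter over 1.5 times the value on the deposited scale.

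Snai1 encodes a zinc-finger repressor that binds E-boxes, of the general form CANNTG and typically CAGGTG. The promoters of both called genes are shown because their letters can be read beside these differences, as RefSeq gives them for GRCm38.p6 (the 250 bases before each start, 5′ to 3′). In the Sema5a promoter, chr15:32244563-32244812 on the plus strand, capitals mark the 150 bases between the start of Sema5a and that of the non-coding RNA gene Snhg18, which is read from the opposite strand. In the Sema7a promoter, chr9:57939862-57940111 on the plus strand, capitals mark a match to CANNTG.
Sema5a: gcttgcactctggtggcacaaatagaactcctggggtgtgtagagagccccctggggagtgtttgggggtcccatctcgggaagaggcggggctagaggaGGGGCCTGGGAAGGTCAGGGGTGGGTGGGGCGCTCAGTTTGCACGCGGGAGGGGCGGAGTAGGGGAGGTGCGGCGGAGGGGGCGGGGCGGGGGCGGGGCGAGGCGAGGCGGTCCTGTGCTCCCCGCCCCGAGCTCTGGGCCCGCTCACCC
Sema7a: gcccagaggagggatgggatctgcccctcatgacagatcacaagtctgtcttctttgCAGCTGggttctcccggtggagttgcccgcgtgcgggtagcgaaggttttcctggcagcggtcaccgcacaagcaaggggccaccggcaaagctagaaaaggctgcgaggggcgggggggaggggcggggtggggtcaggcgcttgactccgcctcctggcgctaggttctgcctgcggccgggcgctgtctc

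The Sema5a window held 0 matches to CANNTG, which reads the same on both strands. The Sema7a window held 1, the letters CAGCTG. Neither window held CAGGTG or its complement CACCTG. Of 32841 windows of this length in the table, 66.2% held CANNTG and 17.2% held CAGGTG or CACCTG. Of the members, 25 genes had at least 1 window in the table, 36 windows in all. A CAGGTG or CACCTG match stood in 5 of these, or 13.9%, belonging to Sema4c, Sema6d, Sema3d, Sema4f and Plxnb2. None of these genes passed the test. A match describes the letters only, and these windows do not cover more distant regulatory sequence.

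The other semaphorins that were clearly above the dim end of the scale belong to classes 3, 4 and 6. Sema4a, a transmembrane ligand best known from immune cells, read 11.86, 11.71 and 11.95 in control and 11.77, 11.88 and 12.06 in knockout samples. Sema4b, another class 4 ligand, read 10.54, 10.57 and 10.46 in control and 10.57, 10.32 and 10.43 in knockout samples. The groups overlapped for both genes, and the differences were 0.06 (95% interval -0.16 to 0.29) and -0.08 (-0.25 to 0.08).

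Sema4g, also of class 4, read 9.54, 9.61 and 9.56 in control and 9.56, 9.73 and 9.65 in knockout samples. Each knockout value exceeded the control value of the same replicate number, by 0.019, 0.12 and 0.086, yet the groups overlapped. The fitted difference of 0.08 had a 95% interval of -0.04 to 0.19 (adjusted p = 0.85, limma). Sema3b, a secreted semaphorin that signals through neuropilins, read 8.39, 8.39 and 8.58 in control and 8.38, 8.52 and 8.47 in knockout samples. Sema6d, a transmembrane ligand of plexin A1, read 8.45, 8.26 and 8.32 and then 8.45, 8.28 and 8.37. Its pairs differed by 0.00043, 0.024 and 0.050. Here too the groups overlapped, with intervals of -0.15 to 0.16 for Sema3b and -0.13 to 0.18 for Sema6d. A change as large as that of Sema5a or Sema7a lies outside the 95% intervals of these 5 genes.

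**Figure D3:**
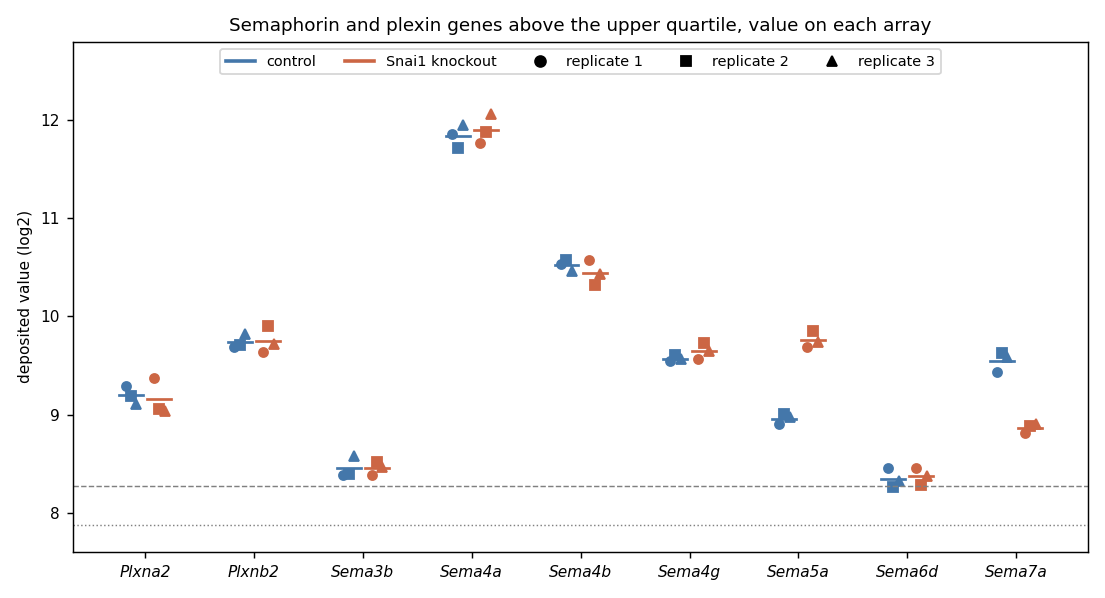
Deposited value (log2, vertical axis) on each of the 6 arrays for the 9 members whose mean lies above the upper quartile; blue is control, orange is Snai1 knockout, symbols give the replicate number and short bars the group mean, with the upper quartile of 8.27 dashed and the median of 7.87 dotted. Only for Sema5a and Sema7a do the groups not overlap; levels of different genes come from different probes and are not comparable.

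Among the receptors, Plxna2 and Plxnb2 exceeded the upper quartile. Plxnb2, a receptor for class 4 semaphorins, read 9.69, 9.71 and 9.82 in control and 9.64, 9.90 and 9.72 in knockout samples. Its difference was 0.01 (95% interval -0.17 to 0.19). Plxna2, a receptor of class 3 and class 6 ligands, read 9.29, 9.19 and 9.11 in control and 9.38, 9.06 and 9.04 in knockout samples. Its difference was -0.04 (-0.29 to 0.21), and the replicates numbered 1 were the highest of both groups.

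The remaining 23 members had mean values of 7.79 to 8.04, at or below the upper quartile, and 10 of them lay at or below the median of all values. At such levels expression cannot be told from background, since the table gives no detection calls. Their differences lay between -0.04 and 0.05, with 95% intervals within -0.12 and 0.13, and the smallest unadjusted p was 0.11 (limma). Above the upper quartile were 9 members, or 28.1%, against 36.6% of all genes.

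Among the dim ligands were the other 6 class 3 genes, at 7.79 to 7.88. They include Sema3a, the classical ligand of neuropilin 1, with a difference of -0.0084, and Sema3f, a ligand of neuropilin 2, with 0.021. Sema3e, which binds plexin D1 without a neuropilin, differed by 0.023. Sema4c, Sema4d and Sema4f differed by -0.0015, 0.034 and -0.027, and Sema6a, Sema6b and Sema6c by -0.0097, -0.045 and 0.019. Sema4d, a ligand of plexin B1 that is shed from the cell, had the highest mean of the dim members, 8.04, and was higher in all 3 pairs, by 0.040, 0.023 and 0.037. Its groups overlapped (adjusted p = 0.95, limma). Sema6b was lower in all 3 pairs, by -0.045, -0.079 and -0.0099, and so was Sema4f, by -0.044, -0.0088 and -0.027, with groups that overlapped for both.

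The dim receptors were 7 plexins and both neuropilins. Plxnc1, the plexin that binds Sema7a, read 7.99, 7.98 and 7.90 in control and 7.92, 7.90 and 7.91 in knockout samples, a difference of -0.04 with overlapping groups. Plxnb3, reported as a receptor of Sema5a, read 7.82 in control and 7.79 in knockout samples. Nrp1 differed by 0.0056 and Nrp2 by 0.053, the latter higher in all 3 pairs but with groups that overlapped (adjusted p = 0.81, limma). The remaining differences ran from -0.024 for Plxnb1 to 0.044 for Plxna3, with Plxna1 at -0.018, Plxna4 at 0.0013, Plxnd1 at -0.018, Plxdc1 at 0.017 and Plxdc2, higher in all 3 pairs, at 0.029.

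Beyond the family, 87 partners were listed from textbook knowledge, among them co-receptors, GTPases and their regulators, kinases, cytoskeletal proteins, proteoglycans and the proteases that cut semaphorins. Of the 81 measured, 0 passed the test over all genes with limma, in either direction. At an unadjusted p under 0.05 there were 12, or 14.8%, against 7.22% of all genes. The groups did not overlap for 17, or 21.0%, 11 higher and 6 lower in the knockout, against 12.0% of all genes (6.20% higher and 5.85% lower). Among the 38 partners above the upper quartile 8 had an unadjusted p under 0.05, or 21.1%, against 14.9% of all genes above it. The median difference was 0.0033.

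The 4 partners of lowest p were all higher in mean. Met, the receptor of hepatocyte growth factor and a partner of B plexins, read 7.86 in control and 7.95 in knockout samples, at the dim end of the scale (difference 0.09 ± 0.02, SE; adjusted p = 0.31, limma). Pcsk6, a proprotein convertase, differed by 0.16 ± 0.04 (adjusted p = 0.36), Arhgef11, an exchange factor that docks on B plexins, by 0.21 ± 0.06 (adjusted p = 0.45), and Tiam1, a Rac exchange factor, by 0.17 ± 0.05 (adjusted p = 0.45; limma).

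For the partners of the 2 called ligands, named after their values were seen, the picture was mixed. The integrin genes Itga1 and Itgb1, whose products bind Sema7a, differed by -0.025 and -0.084. Of the 6 syndecan and glypican genes, which encode heparan sulfate proteoglycans of the kind that Sema5a binds, 3 had groups that did not overlap, against 12.0% of all genes. Sdc2 and Sdc3 were higher in the knockout, by 0.12 ± 0.04 and 0.11 ± 0.03, and Sdc4 differed by -0.18 ± 0.06 (SE). None passed (adjusted p = 0.53, 0.47 and 0.54, limma). Sdc2, with a mean of 8.07, lay below the upper quartile, and it is counted again below among the neighbours of Sema5a.

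**Figure D4:**
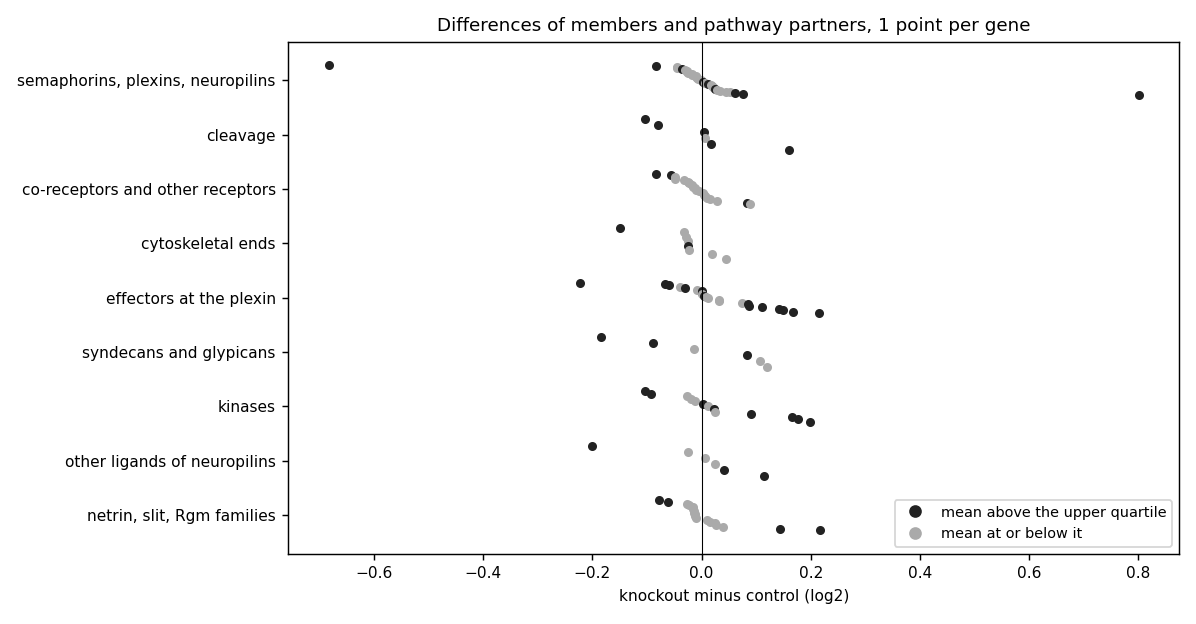
Difference between knockout and control (log2, horizontal axis), 1 point per gene, for the 32 members, for each group of the 81 measured partners and for 18 netrin, slit and repulsive guidance genes; black points have means above the upper quartile, grey points do not. All partners lie between -0.22 and 0.21, inside the values of Sema5a and Sema7a.

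The order of measured genes along the chromosomes, from the GRCm38.p6 gene table, sets both called genes among their neighbours. Of the 10 genes nearest to Sema5a, 5 on each side, 6 had all 3 knockout values above all 3 control values, against 6.20% of all genes, and none had all of them below. None passed the test over all genes. Next to Sema5a on one side lie Snord123, a small nucleolar RNA gene (0.059 ± 0.025), and Snhg18, its host gene (0.27 ± 0.09, SE), so that a probe for one may see the other's transcript. The Snhg18 start faces that of Sema5a across the 150 bases shown in capitals above. Its probe read 8.61 ± 0.07 in control and 8.88 ± 0.16 in knockout samples (SD, n = 3; adjusted p = 0.53, limma).

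On the other side the nearest genes are the syndecan gene Sdc2, described above, and Cpq, which encodes a carboxypeptidase (0.17 ± 0.04). Also without overlap were Atpsckmt (0.32 ± 0.06) and Mtdh (0.30 ± 0.07, SE). The 4 neighbours with overlapping groups were Cct5 (0.016), Tas2r119 (-0.0017), 1700084J12Rik (0.0051) and Tspyl5 (0.040). Around Sema7a the picture was sparser, with 2 of the 10 nearest genes wholly higher and 1 wholly lower, against 5.85% of all genes wholly lower. The lower one was the adjacent gene Cyp11a1, which encodes the enzyme that starts steroid synthesis from cholesterol. It read 8.71 ± 0.06 in control and 8.42 ± 0.04 in knockout samples, a difference of -0.29 ± 0.04 (SE; adjusted p = 0.11, limma). The higher ones were Cyp1a1 (0.034) and Arid3b (0.076), and the others were Edc3 (-0.019), Clk3 (-0.0011), Ubl7 (-0.055), Ccdc33 (0.029), Stra6 (-0.0050), Islr (-0.017) and Islr2 (0.0079).

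**Figure D5:**
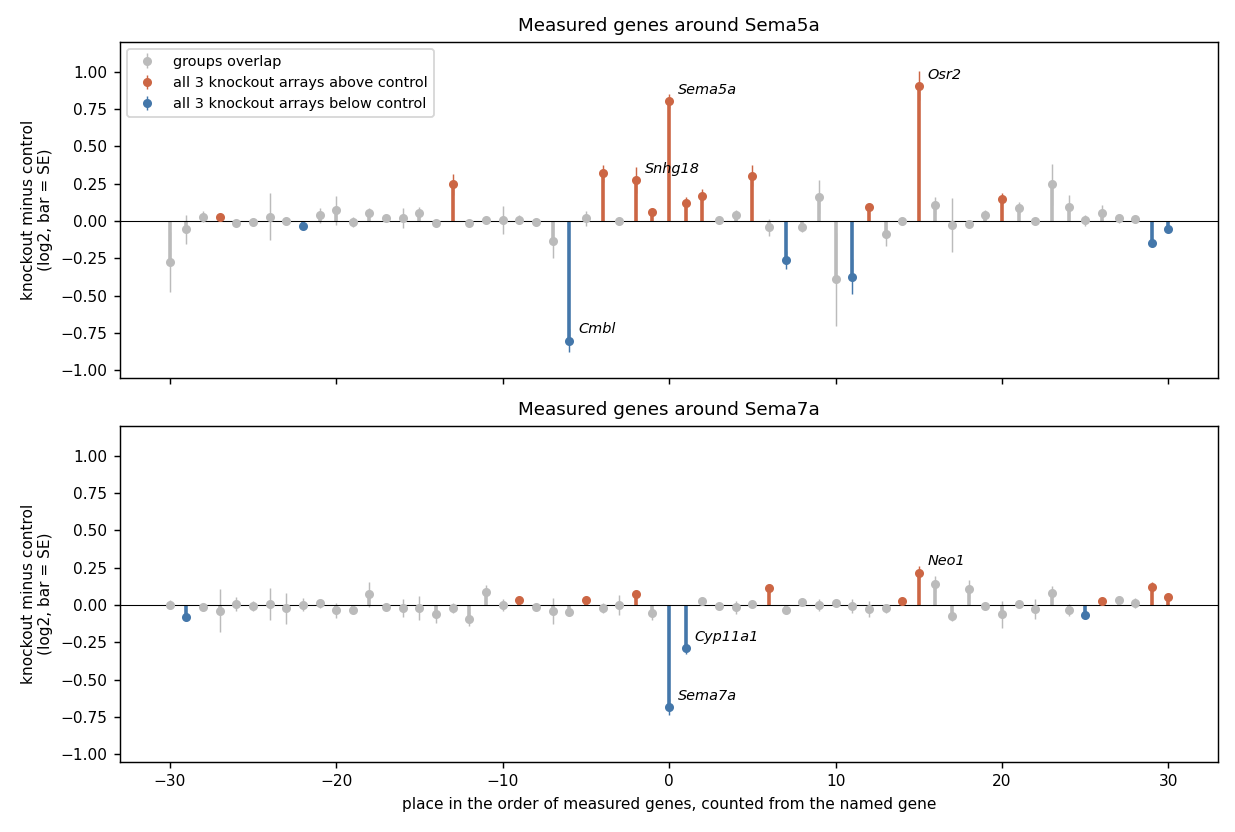
Difference between knockout and control (log2, vertical axis, bars are SE) for the 30 measured genes on each side of Sema5a (top) and Sema7a (bottom), in chromosomal order, with the place counted from the named gene on the horizontal axis; orange marks genes whose 3 knockout arrays all lie above the 3 control arrays, blue those where all lie below, grey those that overlap. Orange genes gather in the 5 places on each side of Sema5a, with Cmbl at -0.80 just beyond them and Osr2 at 0.90 further along.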

How the data were processed

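RNA of 6 organoid samples was hybridised to Illumina arrays as biotinylated cRNA, per the labels' protocols. The deposited table holds the authors' normalized values, taken here as log2; the sources used here do not give log base, background correction or software. Once sorted, the arrays matched each other to within 0.0019, so distributions had been equalised between arrays, and the values were used as deposited. Of the probes, 34885 had 1 gene in the platform annotation, 18 several and 10378 none; all 32 member genes matched the GRCm38.p6 table by gene number. The brightest probe by mean stood for each gene, and no dim gene was removed. The number of arrays limits the precision.

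The groups were compared in limma 3.58.1 under R 4.3.3 (lmFit, eBayes, Benjamini-Hochberg over all genes, threshold 0.05). In data simulated for this comparison on 19057 genes, 86.6% of 67 genes given a log2 change of 0.5 were recovered, and 2.55% of all calls were false. All genes given a change were drawn from those above the upper quartile, with independent noise and no pairing. The recovery therefore does not apply to the members at or below the upper quartile. Deviations from the group means correlated at r = 0.35, 0.33 and 0.46 between samples with the same replicate number. The labels do not state what such samples share. The numbers were therefore used to pair samples in the differences by pair and in the fit with a block. The main fit leaves the pairing out, and it gave the SEs, intervals and p-values wherever the block is not named. The members, lists and tests were chosen with earlier results of these data known. Values on every array are given for members that passed, had an unadjusted p under 0.05 or had means above the upper quartile; of partners and guidance genes the 4 of lowest p are named. Alternatives covered the block, normalization, filters, probe handling, variance model, array weights, the log scale and leaving out each array.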

Additional observations from a re-analysis of the deposited data

How the results depend on the processing

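Of the members, 2 were called as fitted, 1 with the mean of a gene's probes (Sema5a) and 2 in 8 other settings that keep all arrays, which include the replicate block; taking every probe on its own called 3 probes of these 2 genes; leaving out 1 array gave 0 to 1, with 0 without control replicate 3 and without knockout replicate 3. With the replicate block no member's call changed. Over all genes 25 were called, against 9 with the replicate block, 41 among genes above the upper quartile, 71 with trended robust variances, 42 after subtracting the lowest value, 40 over every probe on its own and 4 to 23 leaving out 1 array. The cause of these shifts was not tested, beyond the smaller number of genes or arrays in some. Partners stayed at 0 in every setting run. Differences near 0 turned sign: Sema3b at -0.0026 after cyclic loess and -0.0011 with the mean of its probes, and Sema6d at -0.0081 with the mean of its probes. Leaving out 1 array gave -0.15 to 0.024 for Plxna2, -0.062 to 0.068 for Plxnb2, -0.031 to 0.066 for Sema3b, -0.018 to 0.13 for Sema4a and -0.019 to 0.079 for Sema6d. No direction is therefore given for these 5 genes. Limits are the 3 arrays per group, the compressed dim end of the scale, where 23 of the 32 members lie, and the lack of detection calls.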

Other observations

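Netrins, slits and repulsive guidance molecules steer axons beside the semaphorins, and 18 of 20 listed genes of these families were measured. None passed the test over all genes, and 2, or 11.1%, had an unadjusted p under 0.05 (limma), against 7.22% of all genes. The groups did not overlap for the same number, against 12.0% of all genes. Neo1, which encodes neogenin, a receptor of netrins and repulsive guidance molecules, read 10.46, 10.53 and 10.48 in control and 10.62, 10.74 and 10.77 in knockout samples. Its 3 knockout values were above all 3 control values, with a difference of 0.22 ± 0.05 (SE; adjusted p = 0.30, limma). Rgmb, a ligand of neogenin, differed by 0.14 ± 0.06 and likewise did not overlap between groups (adjusted p = 0.69). The netrin receptor gene Unc5b differed by -0.06 and Slit2, a secreted ligand of Robo receptors, by -0.08, with groups that overlapped.

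A wider window around Sema5a, chosen after the nearest genes had been seen, held differences of either sign. Cmbl, the sixth measured gene on one side and a hydrolase gene, fell by 0.80 ± 0.08 (SE; adjusted p = 0.035, limma), and did not pass with the replicate number as a block (adjusted p = 0.085). Osr2, a transcription factor gene at place 15 on the other side, differed by 0.90 ± 0.10 (adjusted p = 0.066). Among the 60 genes within 30 places, 11 were wholly higher and 6 wholly lower in the knockout, and around Sema7a 9 and 3 of 60. Over all genes 6.20% were wholly higher and 5.85% wholly lower. Neo1 lies 15 places from Sema7a in this order.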
